A study of Mus musculus with 22 samples.

Results

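The comparison described here asks what doxycycline (Dox) changed in neural stem cells (NSCs) whether or not they carried a Musashi transgene. It rests on 6 of the 22 samples of the series, the RNA-Seq libraries of the KH2, MSI1 and MSI2 lines at E12.5, each line with 1 library after Dox at 1 µg/ml and 1 without Dox, both at the 72 h time point. The cells were cortical NSCs cultured from mouse embryos. The MSI1 and MSI2 lines carry a Dox-inducible (tetO) allele of Msi1 or Msi2, which encode RNA-binding proteins of stem cells, and KH2 cells carry no Musashi transgene. In the KH2 system the reverse tetracycline transactivator that Dox switches on is expressed from the Rosa26 locus, and inducible genes are placed at Col1a1. Dox therefore brought with it an induced Musashi gene in the MSI1 and MSI2 lines, and only the KH2 pair shows Dox with no transgene. Each line is 1 culture, so the 3 lines are the repeats of the Dox comparison. Its p-values and SE rest on the spread of the response between lines, moderated with the other genes (2 residual, 13.14 prior degrees of freedom). An SE thus is not a gene's own spread. For Atf5 it was 0.146, where its log2 changes in the 3 lines had an SD of 0.597.

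Dox is a tetracycline antibiotic. Mitochondria descend from bacteria and keep ribosomes of their own, and tetracyclines are known to slow translation on them. The mitochondrial genome encodes 13 subunits of the respiratory chain and ATP synthase, while all other mitochondrial proteins are encoded in the nucleus. Mitochondrial stress is known to reach the nucleus through the transcription factors ATF4 and ATF5, which raise genes of amino acid and folate metabolism. The sterol pathway is governed separately by SREBP transcription factors, which raise the enzymes of cholesterol synthesis when membrane sterol is low.

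The labels were checked first on the targeted genes, as CPM, a gene's reads scaled to library size with TMM factors, the unit of all levels below unless RPKM is named. Msi1 stood at 69.6 CPM without and 69.1 CPM with Dox in KH2 cells, rose from 68.7 to 375 CPM in the MSI1 line, and was at 36.0 and 41.9 CPM in the MSI2 line. Msi2 was at 21.5 and 23.3 CPM in KH2 cells and rose from 17.2 to 92.9 CPM in the MSI2 line. In the MSI1 line, Msi2 was lower with Dox, 14.6 against 23.3 CPM. Col1a1, the gene at the locus that holds the transgenes, was low in every library (2.47 to 4.22 CPM) and was not called, with a log2 change of -0.22 ± 0.22 (SE, adjusted p = 0.706, edgeR).

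The total count per library ran from 7889966 (MSI1 with Dox) to 22248145 (KH2 with Dox). NSC markers were high in all 6 libraries, with Sox2 at 161 to 223 RPKM, Fabp7 at 795 to 1052 RPKM and Nes at 19.9 to 38.3 RPKM. Without Msi1 and Msi2 themselves, 16 stem cell and radial glia markers summed to 2433 to 3002 RPKM without Dox and 2308 to 2685 RPKM with Dox. Of 12 microglia and blood markers 8 had no read in the 6 libraries, among them Csf1r, Cx3cr1 and C1qa, and the whole list summed to at most 0.818 RPKM. The 22 neuron markers summed to 64.6 to 74.7 RPKM without Dox and 51.9 to 63.8 RPKM with Dox, and Slc17a6 and Neurod2 were at 0. The 10 endothelial markers summed to 4.04 to 6.54 RPKM with Cldn5 at 0, and the 13 mural and mesenchymal markers to 16.0 to 29.5 RPKM with Dcn and Lum at 0. Glial lists were not low. The 11 oligodendrocyte lineage markers summed to 365 to 456 RPKM without and 349 to 411 RPKM with Dox. The 11 astrocyte markers summed to 464 to 648 RPKM without and 439 to 670.1 RPKM with Dox. The part of these other cell types in the changes below was not tested, and fewer cells of a type cannot be told apart from less RNA per cell in such bulk samples.

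With line as a block, edgeR's quasi-likelihood test called 56 of 11761 genes (0.476%) at a Benjamini-Hochberg adjusted p under 0.05. Of these, 19 were higher with Dox (0.162% of the genes tested) and 37 lower (0.315%). At an unadjusted p under 0.05, 773 of the 11761 genes were higher (6.57%) and 850 lower (7.23%). All 56 had the same sign in KH2, MSI1 and MSI2 cells, against 34.9% of all genes tested, of which 1913 were higher in all 3 lines and 2193 lower in all 3. That share is a description, since the test itself favours genes with like changes in the lines. The changes were modest. The fitted log2 change ran from -1.41 (Adam5) to 1.40 (Nupr1) with a median size of 0.56, only 4 of the 56 reached 2-fold, and none reached 2-fold in every line. The groups of 3 Dox and 3 untreated libraries did not overlap in 27 of the 56 (48.2%), against 991 of all genes tested (8.43%). The last gene inside the threshold was H2-T23 (adjusted p = 0.0496) and the first outside was Cntn1 (adjusted p = 0.0504). H2-T23 and Hist1h1c belong to families of near-identical genes, so their counts are uncertain.

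**Figure D1:**
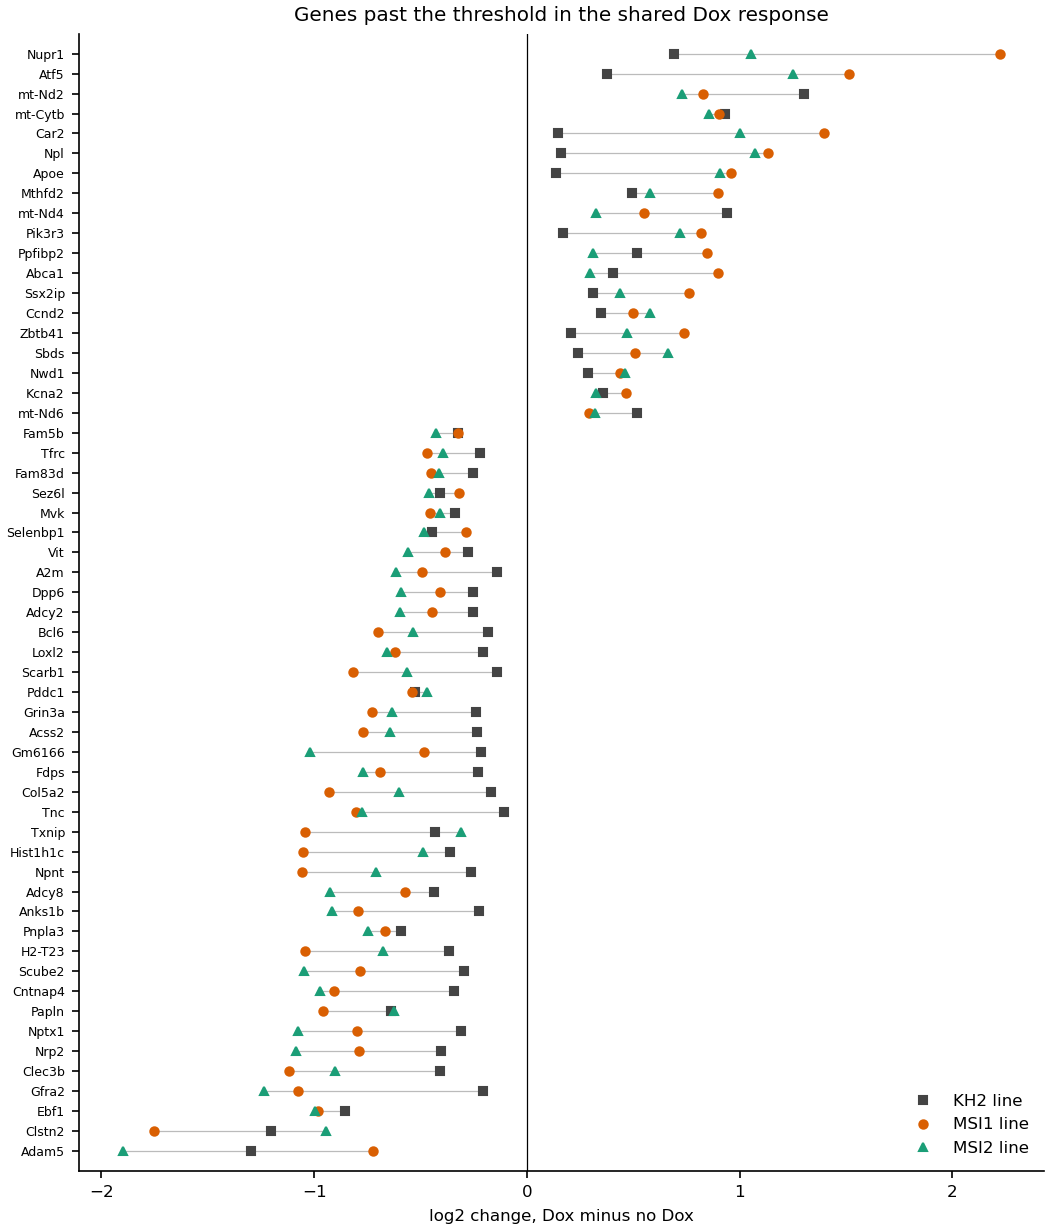
Log2 change (Dox minus no Dox, x axis) of the 56 genes past the threshold (y axis, ordered by the fitted change), with 1 point per line and a grey bar spanning the 3 lines. Every point of a gene lies on the same side of 0, and the KH2 square is the nearest to 0 in 42 genes.

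The size of the change was not alike in the lines. KH2 had the smallest change of the 3 lines in 42 of the 56 genes (75%), against 45.8% of all genes tested. The median size of the log2 change over the 56 genes was 0.32 in KH2, 0.78 in MSI1 and 0.64 in MSI2 cells, beside 0.12, 0.18 and 0.17 over all genes tested. The mitochondrially encoded genes ran the other way. KH2 had the largest change in all 4 of those called and in 0 of the 52 nuclear genes, where 22.0% of all genes tested had their largest change in KH2. A 95% counting interval for the KH2 pair alone, which covers counting error only, lay clear of 0 for 53 of the 56 genes. That count is a description, since the KH2 pair helped to choose these genes, and no share over all genes is given. Such intervals are narrow, as even a technical pair in the series differed by more than counting error (chi-square per degree of freedom 1.69).

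Mitochondrially encoded mRNAs held the rises with the smallest p-values. In all, 4 passed the test and were higher (mt-Cytb, mt-Nd2, mt-Nd4 and mt-Nd6) and 3 did not pass (mt-Nd5, mt-Nd1 and mt-Co1), with a median log2 change of 0.38 over the 7 tested, beside -0.004 over all genes tested. The share of all counts on mitochondrial genes was 5.09% without and 6.85% with Dox in KH2, 5.42% and 7.01% in MSI1, and 5.75% and 6.97% in MSI2 cells.

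mt-Cytb, which encodes the cytochrome b of complex III, went from 8530.2 to 16263 CPM in KH2, from 8579 to 16059.9 CPM in MSI1 and from 10067 to 18218 CPM in MSI2 cells. All 3 Dox libraries lay above all untreated ones, and the log2 changes of the lines lay close together (0.93, 0.90 and 0.86). The fitted change was 0.90 ± 0.07 (SE, 1.86-fold, edgeR adjusted p = 1.85e-05). mt-Nd2, a complex I subunit, went from 2813 to 6940.0 CPM in KH2, from 3949.9 to 7003 CPM in MSI1 and from 4302 to 7130.0 CPM in MSI2 cells. Its untreated levels differed between lines while its levels with Dox were alike at 7024 ± 96.8 CPM (SD, n = 3), and the fitted log2 change was 0.95 ± 0.09 (adjusted p = 0.000251).

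Among the other complex I subunits, mt-Nd4 went from 2122 to 4078 CPM in KH2, from 2461 to 3607 CPM in MSI1 and from 2495 to 3131 CPM in MSI2 cells (log2 change 0.61 ± 0.09, adjusted p = 0.0142). For mt-Nd6, the CPM was 2553 and 3659 in KH2, 3043 and 3722 in MSI1, and 2996 and 3739 in MSI2 cells without and with Dox (0.38 ± 0.07, adjusted p = 0.0386). mt-Nd6 is encoded on the strand opposite to the other genes listed here and overlaps the end of mt-Nd5, and no source used here states whether reads were counted by strand. mt-Nd5 (0.33 ± 0.08, adjusted p = 0.105) and mt-Nd1 (0.26 ± 0.07, adjusted p = 0.124) were higher in each line without passing the threshold.

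mt-Co1, the core subunit of complex IV, was the exception. It was at 22986 and 21638 CPM in KH2, 21396 and 20904 CPM in MSI1, and 22879 and 21297 CPM in MSI2 cells without and with Dox, a fitted log2 change of -0.07 ± 0.07 (adjusted p = 0.692). Within the same libraries mt-Cytb thus came to 1.86-fold and mt-Co1 to 0.950-fold of the untreated level.

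**Figure D2:**
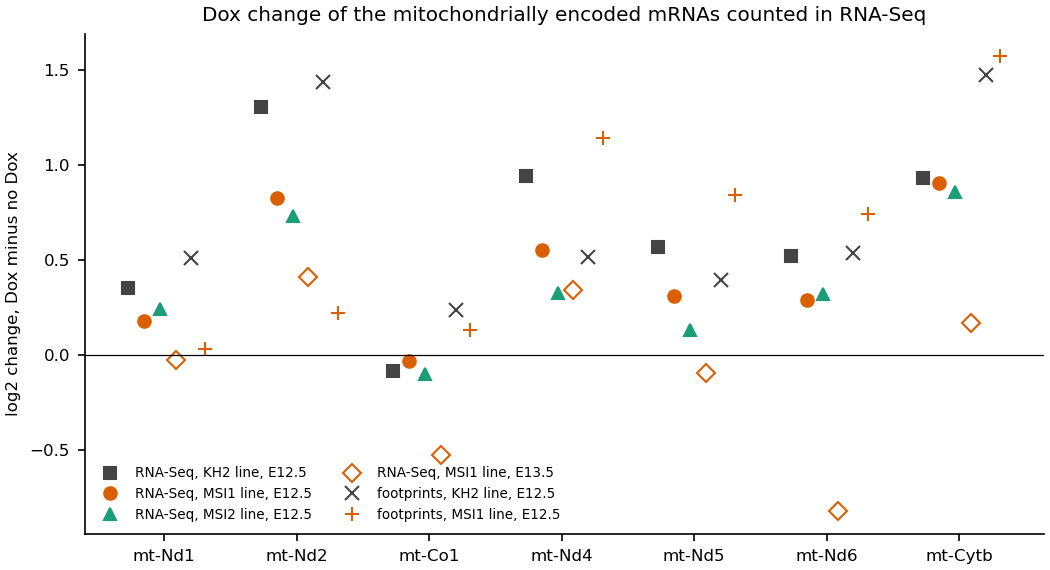
Log2 change with Dox (y axis) of the 7 mitochondrially encoded mRNAs tested in RNA-Seq (x axis), for the 3 lines at E12.5, the MSI1 line at E13.5 and the ribosome footprints of KH2 and MSI1 cells. All filled points of mt-Nd2, mt-Nd4, mt-Nd6 and mt-Cytb lie above 0, those of mt-Co1 lie at or below 0, and the E13.5 diamonds lie lower than the E12.5 MSI1 points for 7 of the 7 genes.

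The other 6 mitochondrial mRNAs could not be followed in RNA-Seq. mt-Co2, mt-Atp8, mt-Atp6, mt-Co3 and mt-Nd4l are listed at 0 in all 6 libraries and mt-Nd3 had 1 read. In the NCBIM37 genome (mm9, the build of the files) these 6 genes lie wholly within chrM:6394-11042, a stretch that stands a second time in the nuclear genome at chr1:24618374-24623023, with 4648 of 4650 aligned bases identical. mt-Nd4 lies in it for 63.6% of its length and mt-Co1 for 31.0%, and mt-Nd1, mt-Nd5, mt-Nd6, mt-Cytb and mt-Nd2 lie outside this copy. The mt-Atp8 gene (chrM:7766-7969, plus strand, 204 bases) is shown as an example of a gene at 0, since all its bases recur without a difference at chr1:24621448-24621651 on the minus strand.
mt-Atp8: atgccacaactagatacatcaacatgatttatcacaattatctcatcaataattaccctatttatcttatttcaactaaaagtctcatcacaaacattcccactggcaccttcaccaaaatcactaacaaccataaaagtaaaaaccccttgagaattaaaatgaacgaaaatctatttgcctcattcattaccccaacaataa

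mt-Cytb also has a nuclear copy, on chromosome 4, but with 93.2% identity over the aligned stretch, which covers all of mt-Nd6 and 54.3% of mt-Nd5 too. Another copy, on chromosome 2 with 97.4% identity, covers all of mt-Co1 and mt-Co2 and 49.2% of mt-Nd2. The first 120 bases of the gene (chrM:14145-14264, plus strand) and their counterpart (chr4:79649893-79650012, plus strand) are shown because this is the gene with the smallest p, and capitals mark the 8 bases at which they differ.
mt-Cytb: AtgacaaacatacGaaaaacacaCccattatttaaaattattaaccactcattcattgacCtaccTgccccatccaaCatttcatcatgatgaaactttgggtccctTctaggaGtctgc
Nuclear copy: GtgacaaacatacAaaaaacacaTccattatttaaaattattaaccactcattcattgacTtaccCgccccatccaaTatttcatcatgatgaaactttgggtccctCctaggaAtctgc
How reads with more than 1 match were assigned is not given in the sources used here, and its part in the zeros was not tested.

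Ribosome footprints, counted separately over coding exons in KH2 and MSI1 cells with and without Dox (4 libraries), were not used to choose these genes, and they hold values for all 13 mitochondrial mRNAs. All 13 were higher with Dox. Of the 7532 genes tested in both assays 3713 were higher, a set that leaves out the mitochondrial mRNAs not tested in RNA-Seq. Of the 8491 genes tested in footprints, 46 were called (0.542%), 23 of them higher (0.271%). Of the 13, only 3 were called. They were mt-Cytb (log2 change 1.52 ± 0.32, edgeR adjusted p = 0.00304), mt-Nd4l (1.65 ± 0.26, adjusted p = 1.72e-05) and mt-Nd3 (0.90 ± 0.22, adjusted p = 0.0289). For mt-Cytb the change was 1.47 in KH2 and 1.57 in MSI1 cells, from 1205 and 3879 reads and from 2540 and 2218 reads. mt-Nd2 was not called (0.83 ± 0.27, edgeR adjusted p = 0.363), and its change was uneven, 1.44 in KH2 and 0.22 in MSI1 cells. mt-Atp8, at 0 in RNA-Seq, had 3094 and 11523 footprint reads in KH2 and 6213 and 4866 in MSI1 cells without and with Dox (1.55 ± 0.48, adjusted p = 0.259). mt-Co1 again had the smallest change (0.18 ± 0.48, adjusted p = 0.9995). These libraries differed in makeup. The 10 genes with most reads held 77.6% and 35.9% of the reads in KH2 without and with Dox and 28.5% and 12.4% in MSI1 cells. With the leading genes of each library removed, which took out mt-Atp8, mt-Co1 and mt-Co2, 3 of the 10 mitochondrial mRNAs left passed. They were mt-Cytb (1.53 ± 0.17, adjusted p = 0.000879), mt-Nd4l (1.65 ± 0.22, adjusted p = 0.00365) and mt-Atp6 (1.14 ± 0.17, adjusted p = 0.013), and mt-Nd3 did not pass (0.91 ± 0.22, adjusted p = 0.376).

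Of 74 mitochondrial ribosomal proteins, 70 nuclear-encoded respiratory chain subunits, 61 factors of mitochondrial gene expression and 24 mitochondrial chaperones and proteases, 0 were called by edgeR in either direction, and at an unadjusted p under 0.05 there were 10 higher and 7 lower among these 229 genes, where 6.57% and 7.23% of all genes were. With 0.476% of all genes called, a count of 0 does not set these lists apart. Their median log2 changes were 0.001, 0.004, 0.05 and 0.04. The members with the smallest p were Mrpl20 (0.35 ± 0.11, adjusted p = 0.156), Cox7a2 (-0.33 ± 0.08, adjusted p = 0.0923), Ppargc1b, a coactivator of mitochondrial biogenesis (0.93 ± 0.29, adjusted p = 0.163), and Hspa9, the chaperone mortalin (0.27 ± 0.07, adjusted p = 0.124).

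ATF4 targets and genes of the integrated stress response held 3 of the 15 nuclear rises. Of 54 members tested, 3 were called higher (Atf5, Mthfd2 and Nupr1), 0 lower, and 51 were not called, with a median log2 change of 0.16. Of all genes tested, 0.162% were called higher and 0.315% lower. In all 3 lines 25 members (46.3%) were higher and 2 lower, against 16.3% and 18.6% of all genes tested. At an unadjusted p under 0.05, 22 members were higher and 2 lower, against 6.57% and 7.23% of all genes.

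Atf5, a bZIP transcription factor of the mitochondrial stress response, went from 29.2 to 38.0 CPM in KH2, from 30.8 to 88.5 CPM in MSI1 and from 90.9 to 217 CPM in MSI2 cells (log2 change 1.08 ± 0.15, adjusted p = 0.00648). Mthfd2, a mitochondrial enzyme of one-carbon metabolism, went from 9.48 to 13.4 CPM in KH2, from 10.6 to 19.9 CPM in MSI1 and from 89.5 to 134 CPM in MSI2 cells (0.65 ± 0.11, adjusted p = 0.0205). In both genes the untreated MSI2 library stood above the Dox libraries of KH2 and MSI1, so the groups overlapped and the rise is seen only within lines. Nupr1, a small stress-induced nuclear protein, was near the detection limit in KH2 cells with 3 reads without and 10 with Dox, a log2 change of 0.69 (95% counting interval -1.17 to 2.55), and went from 0.718 to 3.82 CPM in MSI1 and from 7.69 to 16.1 CPM in MSI2 cells (1.40 ± 0.28, adjusted p = 0.0389). Asns, asparagine synthetase, missed the threshold (0.36 ± 0.08, adjusted p = 0.0591), and neither Atf4 (0.12 ± 0.07, adjusted p = 0.486) nor Ddit3 (0.03 ± 0.11, adjusted p = 0.935) was called. Asns, Atf4 and Ddit3 were chosen after their values were seen.

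**Figure D3:**
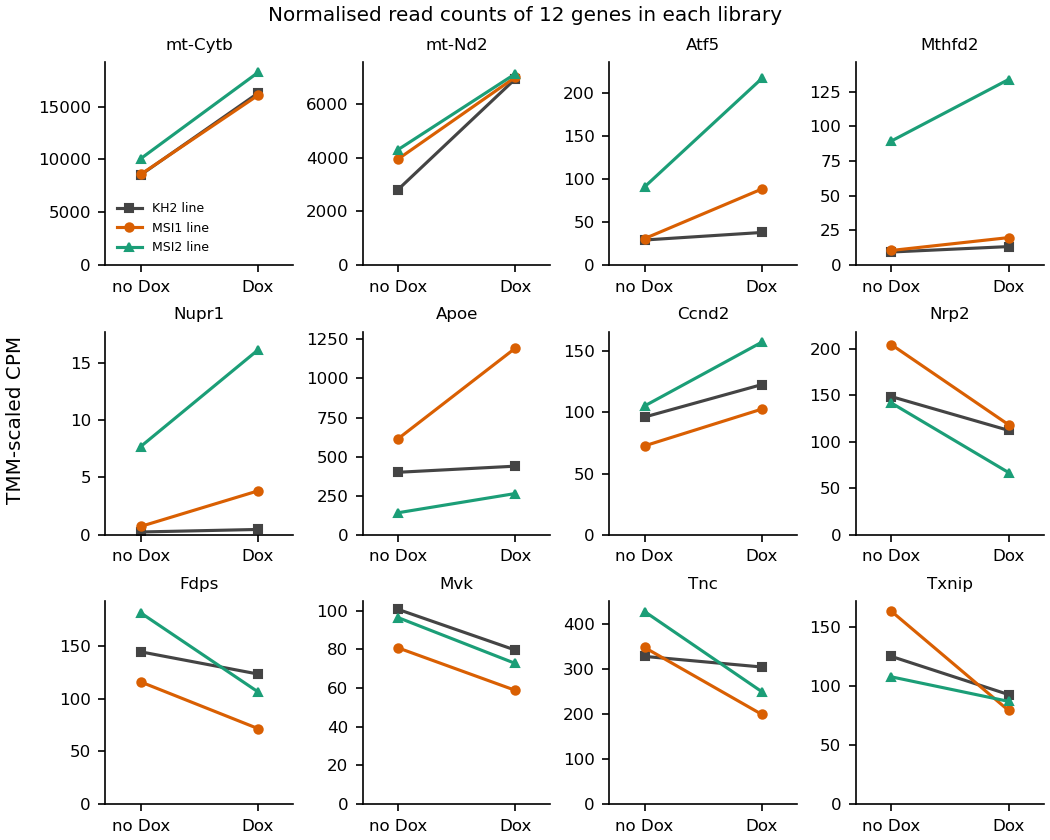
TMM-scaled CPM (y axes, each from 0) of 12 genes in the untreated and the Dox library of each line, joined by a line. Atf5, Mthfd2 and Nupr1 start highest in MSI2 cells and rise in each line, and Nrp2, Fdps, Mvk, Tnc and Txnip fall in each line.

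Of 38 genes tested in the list of sterol and fatty acid synthesis, 3 were called lower (Fdps, Acss2 and Mvk) and 34 not called. The 1 called higher was Abca1, a cholesterol exporter that the list also holds. Of all genes tested, 0.315% were called lower and 0.162% higher. The list had a median log2 change of -0.23. The list had 25 members (65.8%) lower in all 3 lines and 1 higher in all 3, against 18.6% and 16.3% of all genes tested. At an unadjusted p under 0.05, 23 were lower and 1 higher, against 7.23% and 6.57% of all genes. The medians by line were -0.06 in KH2, -0.28 in MSI1 and -0.34 in MSI2 cells.

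Fdps, farnesyl diphosphate synthase, went from 144 to 123 CPM in KH2, from 116 to 71.7 CPM in MSI1 and from 181 to 106 CPM in MSI2 cells (log2 change -0.56 ± 0.10, adjusted p = 0.0288). Mvk, mevalonate kinase of the same pathway, went from 101 to 79.7 CPM in KH2, from 80.8 to 58.9 CPM in MSI1 and from 96.5 to 72.8 CPM in MSI2 cells (-0.40 ± 0.08, adjusted p = 0.0386). The Mvk groups did not overlap, and its change was nearly equal in the lines (-0.34, -0.46 and -0.41). Acss2, which makes acetyl-CoA from acetate, changed by -0.54 ± 0.09 (adjusted p = 0.0288), from 134 to 114 CPM in KH2, from 124 to 72.7 CPM in MSI1 and from 171 to 109.7 CPM in MSI2 cells. Abca1, which exports cholesterol from cells and is raised by sterol excess through other factors than SREBP, went the other way (0.55 ± 0.10, adjusted p = 0.0372), from 115 to 152 CPM in KH2, from 136 to 254 CPM in MSI1 and from 37.0 to 45.5 CPM in MSI2 cells. Apoe, the apolipoprotein that carries sterols between cells and 1 of the astrocyte markers, also rose (0.67 ± 0.12, adjusted p = 0.0331), from 399 to 439 CPM in KH2, from 613 to 1194 CPM in MSI1 and from 140.2 to 263 CPM in MSI2 cells. No other astrocyte marker of the 10 tested was called, where 0.476% of all genes were. The 11 astrocyte markers summed to 464 to 648 RPKM without and 439 to 670.1 RPKM with Dox.

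**Figure D4:**
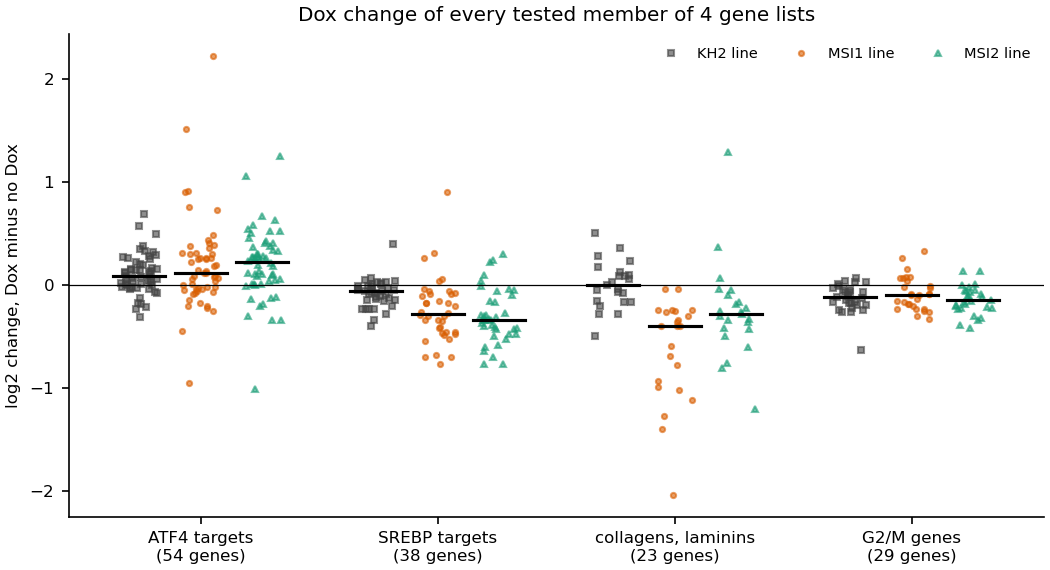
Log2 change with Dox (y axis) of every tested member of 4 gene lists (x axis) in the 3 lines, with black bars at the medians. The medians of ATF4 targets lie above 0 and those of SREBP targets and G2/M genes below 0 in each line, while collagens and laminins have a median of -0.004 in KH2 and are lower in the MSI1 and MSI2 lines. The list labelled SREBP targets also holds the exporter Abca1.

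The start regions of 3 called genes are shown to give their sequence context (RefSeq, GRCm38.p6), each as the 250 bases before the start, 5′ to 3′ on the gene's strand. In the Nupr1 region (chr7:126625471-126625720, minus strand) capitals mark TGATGNAA, searched on both strands, the core of the composite element bound by ATF4 with C/EBP proteins. It is found in 3.45% of all 32851 start regions. The start regions of Atf5 and Mthfd2, the other called genes of the ATF4 list, had 0 matches, and Apoe, outside that list, had 1 match in 1 of its 3 start regions.
Nupr1: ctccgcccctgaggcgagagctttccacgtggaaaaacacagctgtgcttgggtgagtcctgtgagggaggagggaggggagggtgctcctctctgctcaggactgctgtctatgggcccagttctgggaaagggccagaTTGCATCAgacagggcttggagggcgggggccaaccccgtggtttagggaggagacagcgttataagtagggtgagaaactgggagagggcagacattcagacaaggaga

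In the Mvk (chr5:114444019-114444268, plus strand) and Mthfd2 (chr6:83317605-83317854, minus strand) regions capitals mark CCAAT, the motif of NF-Y, a partner of SREBP and many other factors. It was searched on both strands, does not overlap TGATGNAA here, and is found in 33.8% of all start regions, with 5 matches for Mvk and 3 for Mthfd2.
Mvk: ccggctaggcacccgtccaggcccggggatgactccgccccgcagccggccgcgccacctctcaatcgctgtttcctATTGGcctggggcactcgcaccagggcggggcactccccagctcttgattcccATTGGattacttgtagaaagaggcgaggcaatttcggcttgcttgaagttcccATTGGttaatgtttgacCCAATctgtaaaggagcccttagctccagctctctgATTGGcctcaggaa
Mthfd2: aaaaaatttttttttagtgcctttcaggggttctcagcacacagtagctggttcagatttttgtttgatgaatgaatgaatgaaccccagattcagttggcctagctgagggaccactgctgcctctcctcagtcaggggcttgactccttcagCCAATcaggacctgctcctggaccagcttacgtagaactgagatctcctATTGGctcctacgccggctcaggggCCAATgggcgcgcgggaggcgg
A match of letters is a description of the sequence and not a site of binding. Shares over the gene lists are not given, since under 80% of their members had a start region in the table (43 of 54 and 26 of 38).

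Among the falls with the smallest p, Nrp2, a coreceptor for semaphorins and VEGF, went from 148 to 112 CPM in KH2, from 204 to 118 CPM in MSI1 and from 142 to 66.8 CPM in MSI2 cells (log2 change -0.75 ± 0.10, adjusted p = 0.00648), with all Dox libraries below all untreated ones. Adcy8, a calcium-stimulated adenylyl cyclase, changed by -0.64 ± 0.09 (adjusted p = 0.00869) and Nptx1, a neuronal pentraxin, by -0.72 ± 0.11 (adjusted p = 0.0133). Among called genes of neuronal membranes, Cntnap4, Anks1b, Sez6l and Dpp6 changed by -0.72, -0.65, -0.40 and -0.42. The potassium channel Kcna2 went the other way (0.38 ± 0.08, edgeR adjusted p = 0.0421). The neuron markers themselves held no called gene among 13 tested, where 0.476% of all genes were called. Of these markers 2 were lower at an unadjusted p under 0.05, against 7.23% of all genes.

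Of 23 collagens and laminins tested 1 was called, Col5a2, a fibrillar collagen chain (-0.56 ± 0.11, adjusted p = 0.0386), where 0.476% of all genes were. In all 3 lines 9 (39.1%) were lower and 0 higher, against 18.6% and 16.3% of all genes tested. At an unadjusted p under 0.05, 11 were lower and 0 higher, against 7.23% and 6.57% of all genes. The list's median was -0.23 in the fit but -0.004 in KH2, -0.40 in MSI1 and -0.28 in MSI2 cells. Other matrix genes among the falls were Tnc, the tenascin of the NSC niche (-0.56 ± 0.11, adjusted p = 0.0386), the lysyl oxidase Loxl2 (-0.49 ± 0.09, adjusted p = 0.0331), Papln (-0.72 ± 0.11, adjusted p = 0.0117) and Clec3b, tetranectin (-0.79 ± 0.11, adjusted p = 0.0091). Tnc was also the only called gene of 18 stem cell and radial glia markers. It went from 328 to 305 CPM in KH2, from 348 to 199 CPM in MSI1 and from 428 to 249.8 CPM in MSI2 cells, so that its KH2 change was the least of the 3 lines.

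Of the remaining named genes, Ccnd2, cyclin D2 of the G1 phase, was the only called gene of 30 G1/S genes (0.48 ± 0.08, adjusted p = 0.0205), where 0.476% of all genes were called. It was higher by 0.35, 0.50 and 0.58 in KH2, MSI1 and MSI2 cells. None of 29 G2/M genes was called, though 15 were lower in all 3 lines and 1 higher in all 3, and 9 were lower and 0 higher at an unadjusted p under 0.05, with a median of -0.11, where 18.6% of all genes were lower in all 3 lines and 7.23% lower at that unadjusted p. Tfrc, the transferrin receptor, was the 1 called gene of 31 for metal and iron handling (-0.36 ± 0.07, adjusted p = 0.0421). Car2, carbonic anhydrase 2, rose from 63.3 to 70.1 CPM in KH2, from 43.3 to 114 CPM in MSI1 and from 58.2 to 117 CPM in MSI2 cells (0.85 ± 0.16, adjusted p = 0.0386). Pik3r3, a regulatory subunit of PI 3-kinase, changed by 0.57 ± 0.10 (adjusted p = 0.0331) and Ppfibp2, a liprin, by 0.56 ± 0.11 (adjusted p = 0.0386). Txnip, an inhibitor of thioredoxin, lay outside the naming rule and was chosen after its values were seen. It was lower in each line, at 86.4 ± 6.74 CPM (SD, n = 3) with and 132 ± 28.4 CPM without Dox (-0.59 ± 0.11, adjusted p = 0.0386). Of the 26 gene lists 18 held no called member in either direction, among them glycolysis, matrix metalloproteinases, heat shock and ER chaperones, p53 targets, interferon, Notch, immediate early and oligodendrocyte lineage genes, with medians from -0.27 (microglia and blood, 1 gene tested) to 0.09 (Notch targets). With 0.476% of all genes called, a count of 0 does not set these lists apart.

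The remaining called genes, 6 higher and 21 lower with Txnip among them, fell outside the naming rule, and those given here were chosen after their values were seen. The rises were Npl, a lyase of sialic acid breakdown (0.79 ± 0.15), Ssx2ip, Zbtb41, Sbds, a ribosome maturation factor (0.47 ± 0.09), Nwd1 and Kcna2, a voltage-gated potassium channel, which had the least (0.38 ± 0.08). The largest falls were in thinly counted genes. Adam5 had 37 and 24 reads in KH2, 74 and 17 in MSI1 and 66 and 20 in MSI2 cells without and with Dox (-1.41 ± 0.29, adjusted p = 0.0436). Clstn2, a calsyntenin of the synapse, had 56 and 40 reads in KH2, 67 and 7 in MSI1 and 68 and 42 in MSI2 cells (-1.25 ± 0.25, adjusted p = 0.0422). Ebf1, a transcription factor, changed by -0.97 ± 0.19 and Gfra2, the neurturin receptor, by -0.82 ± 0.17. Lipid genes outside the sterol list were Scarb1, the receptor for high-density lipoprotein (-0.50 ± 0.10), and Pnpla3, a lipase of lipid droplets (-0.67 ± 0.13). The others were Scube2, Npnt, H2-T23, Hist1h1c, Gm6166, Grin3a, Pddc1, Bcl6, Adcy2, A2m, Vit, Selenbp1, Fam83d and Fam5b, with changes from -0.70 (Scube2) to -0.36 (Fam5b).

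Whether the response differed between lines with and without a transgene was tested with an interaction term. It called 12 of 11761 genes (0.102%), 3 of them among the 56, all at an adjusted p of 0.042 (edgeR). Apoe rose by 0.80 ± 0.13 more on the log2 scale in MSI1 and MSI2 than in KH2 cells, Car2 by 1.05 ± 0.17 more and Atf5 by 1.00 ± 0.17 more. Myo5a, a myosin motor, changed by 0.19 in KH2 but by -0.57 in both other lines (interaction -0.76 ± 0.13), and Fbn1, fibrillin, by 0.12, -1.15 and -0.70 (-1.02 ± 0.18). The lines differed in more than the transgene. The Y-linked Ddx3y was at 0.0777 and 0.137 CPM in KH2 but at 94.4 to 117 CPM in the MSI1 and MSI2 libraries, so transgene, sex of the line and other features of the lines cannot be told apart in it. This test has 1 residual degree of freedom, and DESeq2 called 0 genes (171 at an unadjusted p under 0.05). For the other 53 genes a difference between lines was not detected, which does not show that the lines responded alike.

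The Dox response was set beside that of the C1 and C4 lines to 4-hydroxytamoxifen (4-OHT) for 48 h. Both lines are floxed at Msi1 and Msi2, and C4 carries the inducible Cre while C1 lacks it. Drug, line, time and library makeup differ together and cannot be told apart. The counts came to 14.85 to 15.75% of the reads behind the RPKM in the 6 libraries, against 32.14 to 34.13% for C1 and C4. mt-Nd6 held 0.255 to 0.382% of the counts in the 6 libraries and 0.0286 to 0.0368% in C1 and C4. Of 12234 genes, 297 (2.43%) differed between the responses, and 4-OHT alone called 462 (3.78%). Of the 56 genes 17 differed, each in the direction of its Dox change. That direction is a description, since the genes were chosen for their Dox change and the difference uses the same 6 libraries. For mt-Cytb, Dox minus 4-OHT was 0.87 (adjusted p = 0.00236) and for mt-Nd2 0.86 (adjusted p = 0.0106), with 4-OHT changes of 0.03 and 0.10. Abca1 and Apoe fell with 4-OHT by 1.33 and 0.92 on the log2 scale, against rises with Dox. Fdps and Mvk changed by 0.74 and 0.75 with 4-OHT, against falls with Dox, and 21 of 38 sterol and fatty acid genes were lower and 1 higher in the difference. With 4-OHT alone 16 of the 38 were called higher and 1 lower, with a median of 0.39 beside -0.23 with Dox. Ccnd2 rose with both, by 0.49 with 4-OHT (adjusted p = 0.0138), with a difference of -0.003. Atf5 did not differ at the threshold (0.77, adjusted p = 0.122).

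**Figure D5:**
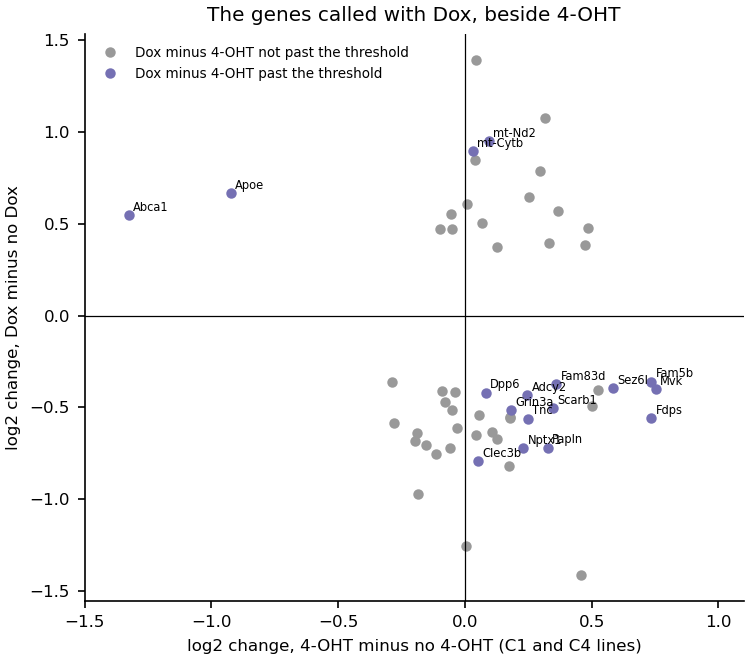
Log2 change with Dox (y axis, KH2, MSI1 and MSI2 lines) and with 4-OHT (x axis, C1 and C4 lines) of the 56 genes, with the 17 whose difference passed the threshold named. Abca1 and Apoe lie far to the left at 4-OHT changes of -1.33 and -0.92, and Fdps and Mvk lie at the right below 0.

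Other measurements outside the 6 libraries were available for most of the 56 genes. In the footprints, 47 of 49 had the sign of their RNA-Seq change (95.9%, against 59.4% of the 7532 genes tested in both), and 4 were called, mt-Cytb, Apoe (1.20 ± 0.23, adjusted p = 0.00121), Car2 (1.33 ± 0.33, adjusted p = 0.0376) and Txnip (-0.91 ± 0.20, adjusted p = 0.00878). Apoe, Car2 and Txnip were not called with the leading genes left out (adjusted p = 0.125, 0.707 and 0.221). The footprints share the cultures' lines and the treatment but are other libraries. The 47 of 49 come from a fit that pools KH2 and MSI1 cells. In KH2 cells alone, footprints of Ppfibp2, Kcna2, Npl, Abca1 and Pik3r3 were lower with Dox, against rises in RNA-Seq. Those of Gfra2, Npnt, Fam83d, Hist1h1c, Tnc, Selenbp1 and A2m were higher in KH2 cells, against falls in RNA-Seq.

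In the MSI1 line at E13.5, with 1 library with Dox and a technical pair without (summed to 1 library), 48 of 56 genes (85.7%) had the same sign, against 57.9% of the 11697 genes with a value, with no replicate check. Several falls had a like sign there, as in Nrp2 (-0.73), Tnc (-1.55), Txnip (-1.43) and Fdps (-0.53). Mitochondrial and ATF4 genes differed from E12.5, a difference that was not tested. The libraries differed too, with counts at 28.17 to 29.97% of the reads behind the RPKM, against 14.85 and 15.04% in the MSI1 line at E12.5. The log2 change was 0.17 for mt-Cytb (95% counting interval 0.16 to 0.17) and 0.41 for mt-Nd2 (0.40 to 0.42), against 0.90 and 0.83 in the same line at E12.5, and -0.82 for mt-Nd6. The share of counts on mitochondrial genes was 4.11% and 4.16% in the pair without Dox and 3.87% with Dox. Mthfd2 (-0.74) and Nupr1 (-0.51) were lower with Dox at E13.5, while Atf5 stayed higher (0.21, 95% counting interval 0.17 to 0.25). In the list, 49 of 54 ATF4 targets were lower, with a median of -0.63, where 5 were higher. The sterol list had 31 of 38 lower and 7 higher, with a median of -0.26. Of the 11697 genes with a value, 6019 were lower and 5678 higher at E13.5, with a median of -0.0095.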

How the data were processed

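For each RNA-Seq library (poly(A)-selected, paired end) the authors deposited a read count per Ensembl gene, not normalized, a length and an RPKM. The authors deposited footprint counts over coding exons in 1 table. The submitters' processing notes name Bowtie, TopHat and mm9. Versions and strand are not given in the sources used here. The 22623 genes of each file include 6327 at 0 in all 6 libraries. Counts were tested with edgeR 4.0.16 (R 4.3.3; TMM, genes with CPM 1 or more in 3 or more of the 6 libraries, line as a block, quasi-likelihood F test, two-sided, Benjamini-Hochberg, threshold 0.05). Per-line changes are log2 TMM-scaled CPM with a prior count of 2. For footprints the minimum was CPM 5 in 2 of the 4 libraries. Alternatives used DESeq2 1.42.0 and limma 3.58.1, the latter on log2(RPKM + 0.5) at a mean RPKM of at least 1. Lines pair the libraries because both come from the same cell line, and deviations from the group means correlated at 0.62, 0.61 and 0.78 within KH2, MSI1 and MSI2. Nuclear copies were found with minimap2. The E13.5 MSI1 libraries without Dox, a technical pair by the labels, were summed. The steps were run on simulated counts. Those had 1 common spread for all designs and no random variation in response between lines, a simpler setting than these data. Named genes were the transgenes and Col1a1, the 12 rises and 12 falls with the smallest p, every mitochondrial mRNA, called members of each list (at most 6, or 2 by p if none), and 5 from the interaction. Genes, lists and tests were chosen with earlier results of these data known. Counting intervals cover counting error only, and precision is limited by 1 library per line and condition.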

Additional observations from a re-analysis of the deposited data

Results flagged for a closer look

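The response to Dox differed between the MSI1 and MSI2 lines and KH2 cells, by the interaction term, in 12 genes. The difference, as MSI1 and MSI2 minus KH2 on the log2 scale, was 0.80 for Apoe, 1.05 for Car2, 1.00 for Atf5, 1.11 for Odc1, 0.96 for Tmem129, 1.04 for Thrsp and 1.46 for ENSMUSG00000057263. It was -0.76 for Myo5a, -1.02 for Fbn1, -0.79 for Slc2a3, -0.86 for Dpysl2 and -0.71 for Sept2. In 9 of the 12, all but Apoe, Car2 and Atf5, the KH2 change had the opposite sign to that of both other lines. Each group of lines holds 1 or 2 pairs of libraries, the adjusted p was 0.042 for all 12 (edgeR), and DESeq2 called 0.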

How the results depend on the processing

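None of the 56 genes changed sign under any alternative that gave it a value. That is a description, since all 56 had the same sign in each of the 3 lines and the alternatives reuse these libraries. The count of 56 (19 higher, 37 lower) became 0 without the line as a replicate block (334 genes at an unadjusted p under 0.05) and 0 with limma on log2(RPKM + 0.5) (1223 unadjusted), 437 (196 higher, 241 lower, 364 with 1 sign in all lines) with no filter on low counts, and 11 (6 higher, 5 lower) at a mean CPM of at least 10. It was 69 with DESeq2, which called 43 of the 56 and gave no adjusted p for 4. Leaving out 1 line gave 24 to 510 genes (11 to 236 higher, 13 to 274 lower, 19 to 325 with 1 sign in all lines). Without KH2 all 56 were called, without MSI1 44 and without MSI2 16, and 13 were called whichever line was left out: mt-Cytb, mt-Nd2, mt-Nd4, Atf5, Apoe, Car2, Nrp2, Adcy8, Clec3b, Papln, Nptx1, Txnip and Col5a2. The interaction count of 12 became 0 with DESeq2 and 0 at a mean CPM of at least 10 (748 unadjusted). The 297 genes of Dox minus 4-OHT became 55 to 482 when 1 line was left out, a choice made after seeing the data (482, 165 and 83 without KH2, MSI1 and MSI2, 378 and 55 without C1 and C4). The 46 footprint genes became 13 without the leading genes, 0 without the replicate block (260 unadjusted) and 8 with DESeq2. Leaving out a line from the interaction or the footprints leaves no residual degree of freedom, so no such test exists. The cause of these shifts was not tested. Depth limits the MSI1 Dox library most (7889966 counts).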
